A study of Ovis aries with 13 samples.

Results

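Interferon-induced genes were followed in the left ventricle of sheep hearts around birth. The set holds 7 of the 847 genes with a symbol on the array, ISG15, MX1, MX2, RTP4, IRF1, CXCL10 and PSMB8, and its members were every probe whose gene name or RefSeq identifier in the array files belongs to one of them. That gave 8 probes on 12 spots among 15008 probes, of which 1359 (9.1%) carried a single gene symbol. ISG15 stands in the array files under its older name ISG17 and was found through its RefSeq identifier.

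The samples were 7 newborn lambs, labelled postnatal day 1 and taken on the day of birth, and 6 fetuses taken at gestational day 142, with 1 single-colour Agilent array of total RNA from a piece of left ventricle for each animal. No treatment, genotype or breed is given in the labels, and the groups held 4 female and 3 male newborns against 2 female and 4 male fetuses. Other heart regions and a further fetus named in the design text were not analysed here. Animals carry a number and in part a letter, and newborn 2, 4 and 5 share the number 5562, newborn 1 and 7 share 1767, fetal 3 and 5 share 1355, and fetal 1 and 6 share 1237. What a shared number stands for is not stated, so the p-values below measure the spread between these arrays, and arrays of the same number may not be independent.

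Interferons are secreted proteins of the immune response, and type I interferons are made by cells that sense foreign nucleic acid. They bind receptors that act through kinases and transcription factors, and a set of antiviral, chemotactic and antigen-processing genes is then transcribed in the responding cell, in heart tissue as elsewhere. Type I interferons act through IFNAR1 and IFNAR2 and interferon gamma acts through its own receptor.

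The probes of the antiviral genes and of the other members are shown because each value below is the brightness of these oligonucleotides and nothing else of the transcript. They are given from the array files' sequence column in sense orientation, whole where the probe lies in the first 1000 bases of its RefSeq transcript and otherwise as a stretch of 30 bases, with capitals marking the polyadenylation hexamer AATAAA.
ISG15: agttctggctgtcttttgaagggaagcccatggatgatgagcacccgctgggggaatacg
MX1: caatttgtaatacagttctttctaccagaa
MX2: tataaacttcatattctAATAAAtcacttc
RTP4: ttctggtgtctaaatacttatgAATAAAaa
RTP4, second probe: tttctggtgtctaaatacttatgAATAAAa
IRF1: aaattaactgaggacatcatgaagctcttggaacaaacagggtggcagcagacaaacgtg
CXCL10: aatgctttccaaAATAAAagtaatgttctc
PSMB8: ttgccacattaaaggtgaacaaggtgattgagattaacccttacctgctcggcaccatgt
The hexamer AATAAA occurred in the probes of MX2, RTP4 and CXCL10, and in 5.6% of all 15008 probes. The 2 RTP4 probes are offset by 1 base and share 59 bases, so they read the same stretch and are not independent. Probes of different member genes shared runs of at most 9 bases, and those of the relatives MX1 and MX2 shared at most 5. In the RefSeq annotation of assembly ARS-UI_Ramb_v3.0, MX1 and MX2 are neighbours, CXCL10 lies between CXCL9 and CXCL11, and PSMB8 lies between TAP2 and TAP1, which carry peptides for antigen presentation. The build of the array design is not named in the sources used here, so no positions are given.

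Signal depth was similar on the 13 arrays. Its upper quartile, the 75th percentile over spots, ranged over arrays from 219 to 367 in processed signal, and 9407 to 10713 probes, or 62.7% to 71.4%, were well above background. Fetal 4 had the fewest such probes. Arrays of a group correlated at 0.96 to 0.991 over the tested probes, and no pair held identical values. Of 19 markers of ventricular muscle cells only MB, myoglobin, and TPM1, a tropomyosin, were on the array. MB averaged 8.62 in newborns and 8.97 in fetuses, and TPM1 9.24 in the 6 newborns without an outlier mark and 9.09 in fetuses, in the log2 units explained next. Every level is a processed signal divided by its array's 75th percentile and taken to log2, so that 0 is as bright as the 75th percentile and a step of 1 is a doubling. Levels compare arrays for the same probe, not genes with each other. The tissue is a mixture of cells, so fewer cells of a type and less RNA per cell cannot be told apart.

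All 7 members had a tested probe and all 7 rose in newborn ventricles, by between 1.91-fold for IRF1 and 7.11-fold for ISG15 (limma, Benjamini-Hochberg adjusted p under 0.05 over 10255 tested probes). Among all tested probes 12% were higher and 11.1% lower in newborns at this threshold, so that 23.1% differed in either direction. The median log2 change was 1.95 over the 7 members, 0.10 over the 554 genes with a symbol and a tested probe, and 0.03 over all tested probes. The members were chosen with earlier results of these data known, so these contrasts are a description and carry no test. The newborn animals differed widely among themselves. Newborn 2 was the highest and newborn 5 the next highest array for every member.

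**Figure D1:**
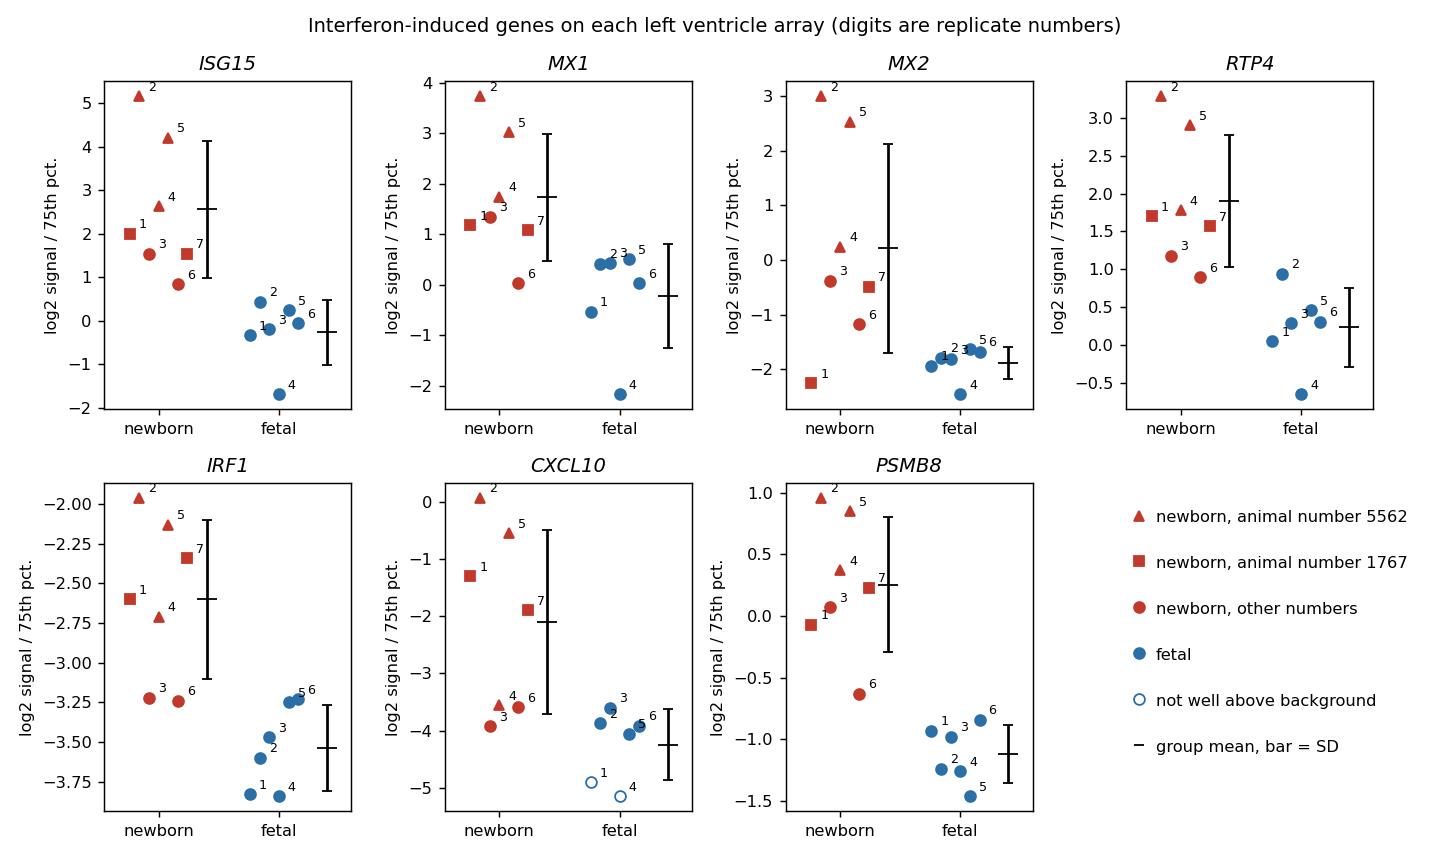
Log2 signal relative to the 75th percentile of the array for the 7 genes, with newborn arrays on the left and fetal arrays on the right of each panel, replicate numbers beside the points, and the mean with its SD as a bar. Newborn 2 and newborn 5 are the top points of every panel, and only ISG15 and PSMB8 have all newborn arrays above all fetal arrays.

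ISG15 encodes a ubiquitin-like protein that is attached to other proteins in the antiviral response. Its log2 level had a lowest value of 0.84, a median of 2.0 and a highest value of 5.17 in the 7 newborns, against -1.69, -0.13 and 0.44 in the 6 fetuses. Newborn 2 and newborn 5 (4.21) were the high arrays, newborn 6 was the low one, and every newborn lay above every fetus. The mean was 2.56 ± 1.58 in newborns and -0.27 ± 0.75 in fetuses (SD, n = 7 and n = 6), a log2 change of 2.83 (SE 0.617, limma adjusted p = 0.00586). Only 15 of the 10255 tested probes, ISG15 included, had a change of that size or more. The fetal group had a low array of its own, fetal 4.

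MX1 and MX2 encode dynamin-like GTPases, of which MX1 blocks the replication of several RNA viruses. MX1 had a lowest log2 level of 0.03, a median of 1.35 and a highest of 3.74 in newborns, against -2.17, 0.23 and 0.51 in fetuses. The groups overlapped only through newborn 6, the lowest newborn, and 6 of 7 newborns lay above every fetus. The log2 change was 1.95, or 3.86-fold (SE 0.564, limma adjusted p = 0.0234).

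MX2 had a lowest log2 level of -2.26, a median of -0.38 and a highest of 3.0 in newborns, against -2.46, -1.80 and -1.63 in fetuses. The 6 fetal arrays lay within 0.83 of each other, while the newborn arrays spanned 5.26, which is a 38.4-fold difference between newborn 2 and newborn 1. Newborn 1 was below 5 of the 6 fetuses, although its MX1 level of 1.18 was above all of them. The log2 change of MX2 was 2.09 (SE 0.693, limma adjusted p = 0.042). That call was lost in 10 of the 13 fits that left out 1 array, each of the fetal arrays and newborn 2, 4, 5 and 7, with changes of 1.63 to 2.51 over the 13 fits.

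RTP4 encodes a receptor transporter protein that is induced by interferon. Its brighter probe had a lowest log2 level of 0.90, a median of 1.70 and a highest of 3.29 in newborns, against -0.65, 0.30 and 0.94 in fetuses. Newborn 2 and newborn 5 (2.90) were again the high arrays, and newborn 6 alone lay below the highest fetus. RTP4 rose by 1.67 on the log2 scale (SE 0.362, limma adjusted p = 0.00561). The second probe gave 1.68 (adjusted p = 0.00522), and the probes differed by at most 0.23 on any array, with a median difference of 0.10.

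PSMB8 encodes a catalytic subunit of the immunoproteasome, which takes the place of a constitutive subunit and cuts peptides for antigen presentation. Its log2 level had a lowest value of -0.63, a median of 0.23 and a highest value of 0.96 in newborns, against -1.46, -1.11 and -0.84 in fetuses. No newborn overlapped with the fetuses, and newborn 6 was the closest to them. The change was 1.37, or 2.59-fold (SE 0.22, limma adjusted p = 0.00134), the smallest adjusted p of the members. ISG15 and PSMB8 were thus 2 of 7 members whose groups did not overlap, against 3.38% of the tested probes with every newborn above every fetus.

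IRF1 encodes a transcription factor that is both induced by interferon and a driver of interferon-responsive promoters. It had a lowest log2 level of -3.24, a median of -2.60 and a highest of -1.96 in newborns, against -3.84, -3.54 and -3.23 in fetuses. Newborn 3 and newborn 6 lay at the level of the highest fetuses and the other 5 newborns lay above. IRF1 rose by 0.94 (SE 0.209, limma adjusted p = 0.00674), the smallest change of the 7 genes.

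CXCL10 encodes a chemokine that attracts activated T cells and is induced strongly by interferon gamma. It was read by 5 spots, and their SD on an array lay between 0.05 and 0.74. The newborns fell into separate levels, with newborn 2 at 0.07, newborn 5 at -0.55, newborn 1 at -1.30 and newborn 7 at -1.90. Newborn 4, 6 and 3 were at -3.55, -3.59 and -3.92, beside fetuses that ran from -5.14 through a median of -3.98 to -3.60. Fetal 1 and fetal 4, the lowest arrays, were not well above background, so their values are uncertain. The log2 change was 2.14 (SE 0.609, limma adjusted p = 0.0219). Newborn 3, 4 and 6 lay only 0.33, 0.70 and 0.66 above the fetal mean.

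**Figure D2:**
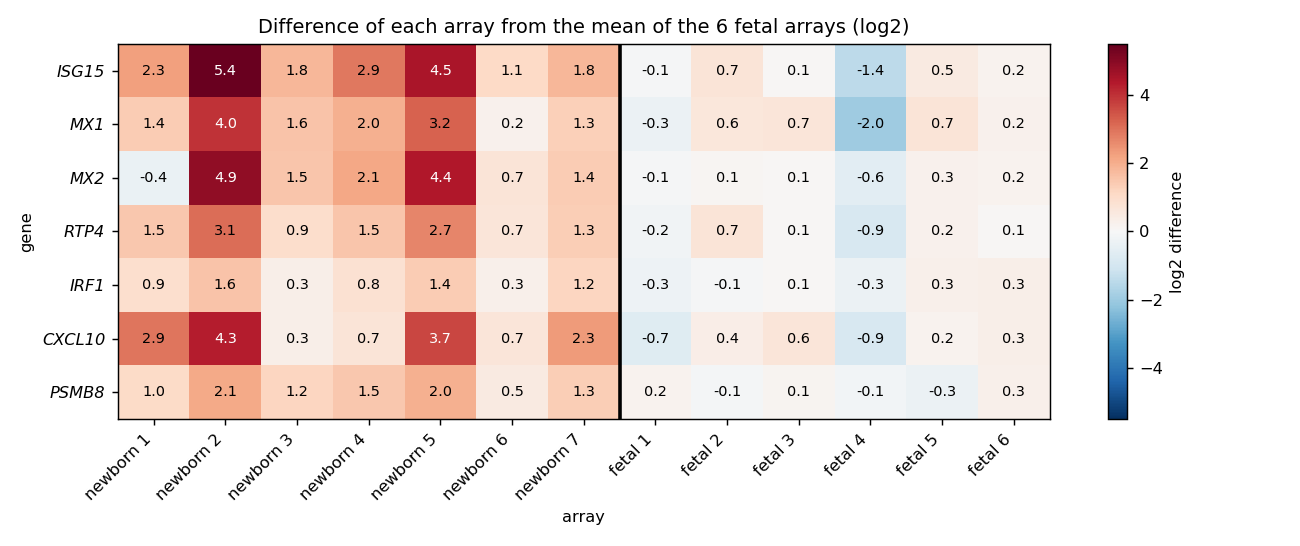
Log2 difference of each array from the mean of the 6 fetal arrays, with the 7 genes as rows and newborn 1 to 7, then fetal 1 to 6, as columns. Newborn 2 and newborn 5 are the darkest columns, newborn 4 is high for ISG15 (2.91) but not for CXCL10 (0.70), and newborn 1 is high for CXCL10 (2.94) but not for MX2 (-0.37).

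The order of the arrays was shared among the members. Newborn 2 was the highest and newborn 5 the next in 7 of 7 genes, while 2.22% of 10139 probes measured on every array, and 4.2% of those called higher in newborns, had that order. Newborn 4 ranked next for ISG15, MX1, MX2, RTP4 and PSMB8, so that the animals numbered 5562 held the top 3 places in 5 of 7 genes, against 3.95% of all probes and 8.24% of those called higher. For IRF1 that place was held by newborn 7 and for CXCL10 by newborn 1, the pair numbered 1767. Newborn 6 was the lowest newborn in 5 of 7 genes, which was also true of 22.3% of all probes and of 47.8% of those called higher. Among fetuses, fetal 4 was lowest in 6 of 7 genes and in 16.7% of all probes. These orders were noticed in the data and carry no test. Because arrays share animal numbers and newborn 2 and newborn 5 stand apart from the others, no correlation among the newborn arrays is given.

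The members differed in how far the newborns spread. The SD among newborn arrays was 1.92 for MX2, 1.6 for CXCL10, 1.58 for ISG15 and 1.26 for MX1, each at or above the SD of at least 99.3% of the tested probes. The SD of 0.88 of RTP4 stood at the 97.6th percentile, that of 0.55 of PSMB8 at the 89.9th and that of 0.50 of IRF1 at the 86.7th. The median over all tested probes was 0.27. From the highest to the lowest newborn the signal ratio was 20.2 for ISG15, 13.1 for MX1, 15.9 for CXCL10, 5.25 for RTP4, 3.01 for PSMB8 and 2.42 for IRF1. The fetal SD was smaller, from 0.24 for PSMB8 to 1.04 for MX1, beside a median of 0.21 over all tested probes. It too was wide for several members, at the 99.0th percentile for MX1, the 97.8th for ISG15, the 96.4th for CXCL10 and the 93.9th for RTP4. Fetal 4 was the lowest fetus for each of these 4 genes. With the normexp method on the background of each spot the newborn SD of CXCL10 was 0.91, and for IRF1 the order turned, with 0.53 in newborns and 0.66 in fetuses. On the median background of each array the newborn SD was 0.85 for CXCL10 and 0.23 for IRF1. Both normexp settings add an offset of 50 to each signal, which by itself lowers the SD of dim probes.

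**Figure D3:**
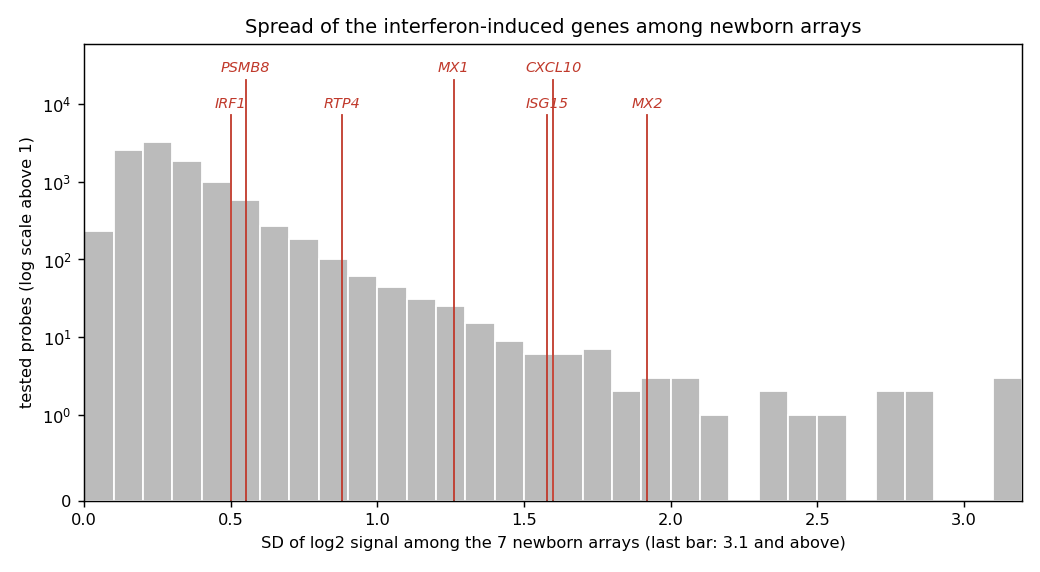
Number of tested probes by the SD of their log2 signal among the 7 newborn arrays, on a log scale above 1, with red lines at the SD of each member. MX2 (1.92), CXCL10 (1.6), ISG15 (1.58) and MX1 (1.26) lie in the far right tail, and IRF1 (0.50) and PSMB8 (0.55) near the 90th percentile of 0.55.

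The changes held their direction in the subsets of arrays, and their size depended on the animals numbered 5562. Without newborn 2, 4 and 5 all 7 members were still higher in newborns, but 3 of 7 passed, against 3.33% of the tested probes called higher in the same fit. ISG15 had a change of 1.74 (limma adjusted p = 0.0247), RTP4 of 1.11 (adjusted p = 0.0372) and PSMB8 of 1.02 (adjusted p = 0.0132). MX1 (1.12, adjusted p = 0.172), MX2 (0.81, adjusted p = 0.143), IRF1 (0.69, adjusted p = 0.0647) and CXCL10 (1.57, adjusted p = 0.0777) did not pass. That fit compares 4 newborns with 6 fetuses. With animal number as a random block, MX2 (adjusted p = 0.0713) and CXCL10 (adjusted p = 0.0516) missed the threshold and the other 5 passed, where 8.41% of the tested probes were called higher. With the mean of the arrays that share a number as 1 replicate, 4 newborn against 4 fetal numbers, only PSMB8 passed (1.21, adjusted p = 0.0442), where 1.43% of the tested probes were called higher. ISG15 (2.39, adjusted p = 0.0719), RTP4 (1.38, adjusted p = 0.0854), IRF1 (0.78, adjusted p = 0.0862), CXCL10 (1.69, adjusted p = 0.125), MX2 (1.69, adjusted p = 0.141) and MX1 (1.72, adjusted p = 0.165) then missed the threshold.

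Each slide held both groups, 3 newborns and 4 fetuses on slide 1 and 4 newborns and 2 fetuses on slide 2. With slide as a block 6 of 7 members passed, where 10.4% of the tested probes were called higher, and MX2 did not (2.04, adjusted p = 0.0651). Within slide 1 and within slide 2 the log2 change was 3.35 and 2.22 for ISG15, 2.55 and 1.19 for MX1, 2.12 and 1.93 for MX2, and 1.90 and 1.40 for RTP4. For PSMB8 it was 1.42 and 1.36, for IRF1 1.09 and 0.64, and for CXCL10 2.65 and 1.59. The test of the difference between slides had a limma adjusted p of 1 for each gene (unadjusted p of 0.281 to 0.901, so 0 of 7 were under 0.05). In males and in females the change was 3.01 and 2.40 for ISG15 and 1.29 and 1.38 for PSMB8, and the other members likewise were higher in newborns of both sexes. The product of age and sex passed for no member (limma adjusted p of 0.991 to 0.995, unadjusted p of 0.625 to 0.928, so 0 of 7 were under 0.05).

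**Figure D4:**
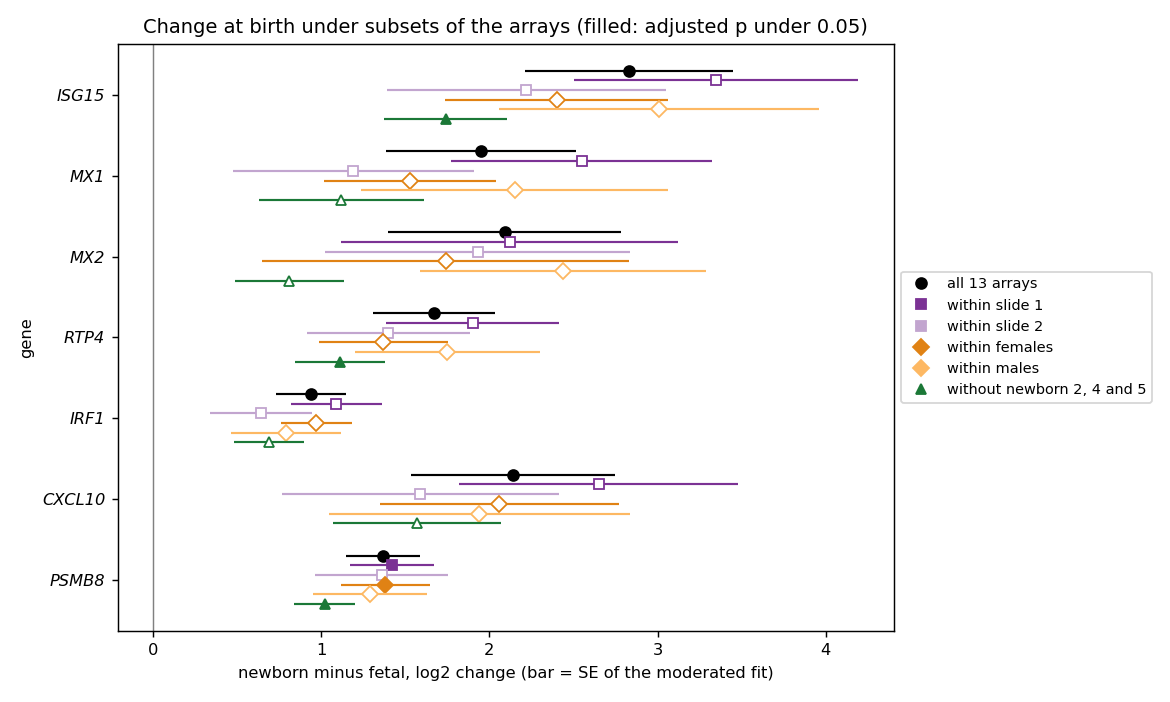
Newborn minus fetal log2 change of each gene with its SE, over all 13 arrays and over subsets, where a filled marker passed an adjusted p of 0.05. All changes are above 0. Removing newborn 2, 4 and 5 gives the lowest of the plotted values for ISG15 (1.74), MX1 (1.12), MX2 (0.81), RTP4 (1.11), PSMB8 (1.02) and CXCL10 (1.57). For IRF1 the lowest is within slide 2 (0.64, against 0.69 without those arrays).

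The choice of background correction also ended calls. With the normexp method on the local background of each spot, 0 of 7 members passed in limma (5 of 7 at an unadjusted p under 0.05), and 48 of the 10255 tested probes passed in all. ISG15 then changed by 2.35 (adjusted p = 0.0803), while IRF1 (0.26) and CXCL10 (0.67), the members nearest to background, changed by less. The method adds an offset of 50 to each signal, which by itself shrinks the log2 change of probes as dim as these. With the same method and offset on the median background of each array all 7 passed, where 11.5% of the tested probes were called higher. The changes of IRF1 and CXCL10 were then 0.41 and 0.96.

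Of the other genes of the pathway, few were on the array. Among 20 listed interferons and receptors, 3 had a tested probe and 0 passed in limma (0 of 3 at an unadjusted p under 0.05). The type I receptor chains IFNAR1 and IFNAR2 had log2 changes of 0.26 (adjusted p = 0.171) and 0.18 (adjusted p = 0.265). IFNG, interferon gamma, had a change of -0.14 (adjusted p = 0.752) and was well above background on 3 newborn and 3 fetal arrays. A probe for an interferon alpha gene was above background on 0 of 13 arrays, which does not show that the transcript was absent.

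The transcription factors IRF2 (-0.20, adjusted p = 0.337) and IRF3 (-0.14, adjusted p = 0.529) did not pass. Of 18 listed sensors and adaptors 2 were tested and 0 passed in limma (0 of 2 at an unadjusted p under 0.05), TLR7 (0.47, adjusted p = 0.186) and TLR3 (0.25, adjusted p = 0.332), which sense viral RNA.

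Of 32 listed genes of antigen presentation 3 were tested and 1 passed, beside 15.7% higher and 8.48% lower among the 554 genes with a symbol. It was PSME2, a subunit of the interferon-induced proteasome activator. Its lowest, median and highest log2 levels were 4.63, 4.98 and 5.45 in newborns, against 4.03, 4.34 and 4.57 in fetuses, with no overlap, and the change was 0.71 (SE 0.146, limma adjusted p = 0.0043). CTSS, a protease of antigen processing, had 0.23 (adjusted p = 0.468) and the class II gene OVAR-DQA1 had -0.08 (adjusted p = 0.753) by its brighter probe and 1.70 (SE 0.869, adjusted p = 0.167) by the other, so the probes differed in sign. Of the constitutive proteasome subunits PSMB7 passed by its brighter probe (0.30, adjusted p = 0.029) and not by its other one (0.17, adjusted p = 0.316), while PSMA6 (0.27, adjusted p = 0.0734) and PSMD4 (-0.12, adjusted p = 0.529) did not. PSMB8, at 1.37, thus had a larger change than each of these 3. FCGR1A, a high-affinity Fc receptor of monocytes that interferon gamma induces and that is also on the monocyte marker list below, had a log2 change of 2.07 (SE 0.304, limma adjusted p = 0.000774). Its probe was well above background on 7 of 7 newborn and 2 of 6 fetal arrays, so it was tested through the newborn arrays and the size of its change is uncertain. With the normexp method the change was 0.61 on the median background of each array (adjusted p = 0.0017) and 0.40 on that of each spot (adjusted p = 0.865). The offset of 50 in both settings by itself shrinks the change of so dim a probe. A probe without a symbol that the files describe as like bovine interferon-induced protein 1-8U had a change of 0.30 (SE 0.247, adjusted p = 0.386).

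**Figure D5:**
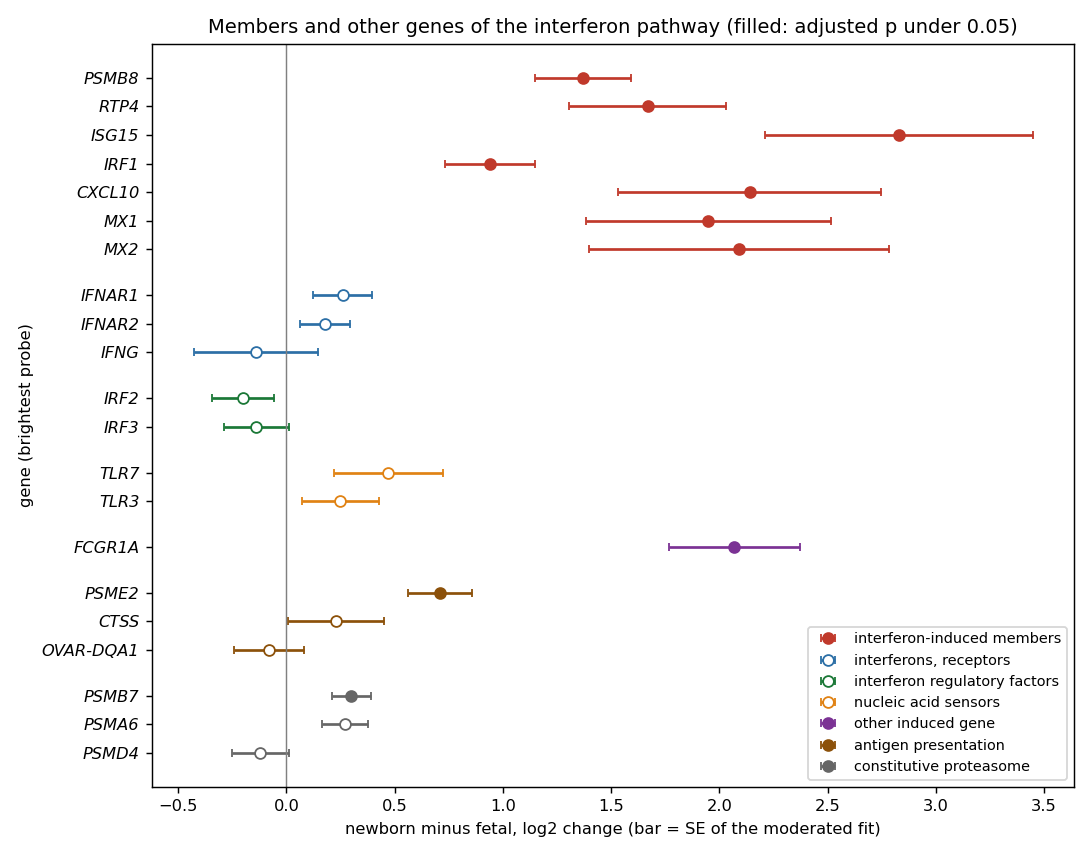
Newborn minus fetal log2 change with its SE for the 7 members and for 14 other genes of the interferon pathway or of the proteasome, grouped by role, filled where the adjusted p was under 0.05. FCGR1A was well above background on 2 of 6 fetal arrays. The members lie at 0.94 and above, FCGR1A at 2.07, PSME2 at 0.71, and the receptors IFNAR1 and IFNAR2 at 0.26 and 0.18.

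Genes with the most similar pattern were sought among 547 named genes by the Pearson correlation of deviations from the group means over the 13 arrays, as a description. For ISG15 they included TLR3 (0.70) and MYL6, a myosin light chain (0.69). Without the 2 arrays farthest from the median, newborn 2 and newborn 6, these were 0.57 and 0.58. For PSMB8 they were MYL6 (0.80), PSME2 (0.77) and LOC443295 (0.76), with 0.68, 0.72 and 0.58 without newborn 6 and newborn 2. For IRF1 they were ENO3, a muscle enolase (0.83), MCP-3 (0.75) and APOBEC3F (0.72), with 0.79, 0.70 and 0.80 without newborn 6 and newborn 2. The MCP-3 probe was well above background on only 4 newborn and 4 fetal arrays, and IRF1 is dim, so their likeness is uncertain. For CXCL10 they were IRF3 (0.86), HIF3A (0.79) and APOBEC3F (0.74), with 0.74, 0.63 and 0.63 without newborn 3 and newborn 2. The points share arrays, depth and animal numbers.

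Some markers of other cell types also differed between the groups. Of 16 markers of macrophages or monocytes 7 were on the array and 5 were tested. Of these 4 rose, beside 15.7% higher and 8.48% lower among the 554 genes with a symbol. Among them were CD86 (1.54, limma adjusted p = 0.000545), FCER1G (0.76, adjusted p = 0.00921) and CD14 (0.66, adjusted p = 0.0164). LYZ did not pass (0.68, adjusted p = 0.277). The CD86 probe was well above background on 4 of 6 fetal arrays, so the size of its change is uncertain. Its other probe was too dim to be tested, and ITGAM was above background on 0 of 13 arrays. The summed signal of the 5 tested markers, relative to the 75th percentile, was 1.18 to 2.63 in newborns and 0.787 to 1.17 in fetuses. Within newborns the sum was highest in newborn 4 (2.63), newborn 5 (2.27) and newborn 2 (1.97), and the same 3 arrays, in another order, were the highest for ISG15. The sum is weighted to bright probes, here FCER1G, with a newborn mean of 0.30 against -2.54 for CD14 and -2.62 for CD86. Newborn 2 was not among the highest 3 for CD14 or CD86. For CD14 it was at -2.70, below every other newborn but newborn 1 (-3.1). For CD86 it was at -2.70, below newborn 1 (-2.28), newborn 4 (-1.82) and newborn 5 (-2.28). FCGR1A, itself induced by interferon, is part of the sum. Of the 3 tested lymphocyte markers CD3E and CD3D fell, and CD5 did not pass (0.03, limma adjusted p = 0.96). CD3D was well above background on 2 newborn and 5 fetal arrays, CD3E on 5 and 6, and CD5 on 4 and 3. The lymphocyte sum was 0.0871 to 0.224 in newborns and 0.252 to 0.707 in fetuses. The newborn sum lies near background, so the size of these differences is uncertain. The red cell sum was 25.4 to 68.6 in newborns and 53.7 to 258 in fetuses, and the endothelial sum 4.02 to 6.52 in newborns and 5.65 to 7.26 in fetuses. Of the endothelial markers PECAM1 (-0.51) and KDR (-0.46) fell, while TIE1 (-0.09) and ICAM1 (0.85, limma adjusted p = 0.0886) did not pass. The fibroblast sum overlapped, with 28.6 to 74.8 in newborns and 43.7 to 64.8 in fetuses. Of the 3 tested fibroblast markers COL3A1 fell by its brightest probe (-0.37, limma adjusted p = 0.0469). Its other probes did not pass (-0.28, adjusted p = 0.143, and -0.19, adjusted p = 0.374). DCN (-0.19, adjusted p = 0.466) and COL1A2 (-0.08, adjusted p = 0.766) did not pass either. The neutrophil marker MMP9 and the dendritic cell marker CD1B were above background on 0 of 13 arrays. The part of these cell types in the change of the interferon-induced genes was not tested.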

How the data were processed

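Spot intensity values of a single green channel fill the deposited scanner files, made with Agilent Feature Extraction 10.1.1.1 per the submitters' processing notes. Per the file headers, background had been subtracted from the processed signal, and arrays had not been normalized against each other. The dye is Cy3 in the labels' protocols and Cy5 in the label field. The authors' deposited series matrix was read, from its values, as log2 signals of 7041 probes, among them those of 5 members, with scale and normalization not stated in the sources used here. It served as an alternative.

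Processed signals were divided by their array's 75th percentile over non-control spots and taken to log2. Spots marked as controls or outliers were dropped, and replicate spots averaged. Testing required a signal well above background on 6 or more arrays (10255 of 15008 probes). No member spot was saturated, and all members passed this filter. The two-sided moderated test of limma 3.58.1 (lmFit, eBayes; R 4.3.3) compared the groups, p-values were adjusted after Benjamini and Hochberg across all tested probes with a threshold of 0.05, and the brightest probe stood for a gene. Symbols were updated through RefSeq's genes, and 14 probes with several genes and 13635 with none were left unnamed. Other software was version 1.17.8 of data.table, Python 3.11.15, matplotlib 3.10.9, pandas 2.3.3 and numpy 2.4.6.

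The members and the gene lists were chosen with earlier results of these data known. The genes named are every member, for each list of pathway genes the 3 with the smallest p, the 3 genes most similar to ISG15, IRF1, CXCL10 and PSMB8, and cell type markers. A gene that these rules also name is not reported here. Alternatives were other normalizations, background corrections, filters, models and subsets of arrays. The normexp corrections used an offset of 50. Arrays of the same replicate number correlated at -0.07 to 0.05 in their deviations from the group means, so the numbers were not taken as pairs. On simulated data with 10255 probes the fit recovered 38% of 50 probes changed 1.5-fold, 92% at 2-fold, 100% at 4-fold and 98% at 8-fold, with 13 false calls. The simulated arrays were independent, so these rates do not cover arrays that share an animal number. Changed probes were drawn at random, with the same spread in both groups. The rates thus do not cover genes as widely and unequally spread as several members, such as MX2 (SD 1.92 in newborns, 0.3 in fetuses). Precision is limited by how few arrays each group has.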

Additional observations from a re-analysis of the deposited data

Results flagged for a closer look

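In fetal 4 ISG15 was at -1.69, apart from the other 5 fetuses, which lay between -0.33 and 0.44. Its gap to the nearest fetus was 0.637 of the fetal range, above Dixon's critical ratio of 0.625 for 6 samples. Among the 14 groups of arrays examined this was the only one past its critical ratio, and chance flags about 1 in 20 groups. MX2 (0.621) and MX1 (0.61) came close in the same array, which also had the fewest probes well above background (9407). Without fetal 4 all members but MX2 still passed, where 10.4% of the tested probes were called higher.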

How the results depend on the processing

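All members tested kept their direction under every alternative and with each array left out. In all, 2366 probes and 7 of 7 members passed. With normexp on the background of each spot 48 probes and 0 members passed (5 at an unadjusted p under 0.05), and with 1 median background per array, chosen after seeing the data, 2011 and 7. Within slide 1 the counts were 356 and 1, within slide 2 they were 23 and 0 (3 members unadjusted), in females 342 and 1, and in males 13 and 0 (6 members unadjusted). With the mean of arrays that share an animal number they were 315 and 1, and without number 5562 they were 749 and 3. Subsets hold fewer arrays. Requiring all 13 arrays above background leaves no value for CXCL10, and the other 6 passed, where 13.4% of the probes kept were called higher. In the authors' deposited series matrix 4 of the 5 members it holds passed, without MX2 (1.43, adjusted p = 0.0587). There 12.2% of its probes were called higher. Leaving out 1 array gave 1727 to 3116 probes and 6 to 7 members, MX2 being the one lost. With the replicate block, from numbers that do not pair the animals, 1326 probes and 6 members passed (MX2 2.21, adjusted p = 0.055). MX2 was also lost without the filter, with sex as a covariate and with a trended eBayes. The cause was not tested. IRF1 and CXCL10 lie nearest to background.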

Other observations

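Beyond the named genes, 8 of 10247 other tested probes had a correlation of at least 0.9 with ISG15 in their deviations from the group means over the 13 arrays, chosen after their values were seen. Without the 2 arrays farthest from the median of ISG15 the correlations were 0.83 to 0.98, and 6 of the 8 lay between 0.83 and 0.88. None of the 8 carries a gene symbol. Of them 7 were higher in newborns with a limma adjusted p under 0.05, where 12% of all tested probes were. The probe most like ISG15 (0.99, and 0.98 without those 2 arrays) was at 0.96 in newborn 2 and 0.56 in newborn 5, between -1.95 and -0.71 in the other newborns, and between -4.14 and -2.13 in fetuses. Its log2 change was 2.16 (SE 0.444, adjusted p = 0.00442). The largest change of the 8 was 2.60 (SE 0.53, adjusted p = 0.00421), in a probe with a correlation of 0.93 (0.85 without those arrays) at 3.13 in newborn 2 and 2.62 in newborn 5, between -0.89 and 1.31 in the other newborns and between -2.05 and -1.28 in fetuses. In both probes all newborns lay above all fetuses, as in 3.38% of the tested probes. Both are shown by their last 30 bases so that their transcripts can be looked up.
A_70_P052396: tttgaggtccaggaacggcaatgggagaat
A_70_P064281: ttctcagattctgtgtctctatgttagcca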
